A study of Glycyrrhiza uralensis with 15 samples.

Results

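Seedlings of licorice (Glycyrrhiza uralensis) aged 45 days held 40 loci at which one treatment group used a different mix of isoforms from every library of the other 4 groups. The isoform table held 38933 loci, of which 8560 reached 10 CPM (reads scaled to a library total of 1000000) in every library, and 3910 of these had 2 to 9 isoforms. A locus is the isoform ID without its last number, and the share of an isoform is its CPM as a percentage of the locus sum. A locus was kept when the 3 libraries of 1 group all lay above, or all below, the other 12 in the share of some isoform and the mean share differed by 20 percentage points or more. The loci were thus chosen by the isoform shares of all 15 libraries, so shares in the group that stands apart (the switching group) are given as a description, with no test.

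Whole seedlings were grown 60 seeds to a pot in 1900 g of sand, and their full-length cDNA was read by nanopore sequencing after 14 cycles of PCR. DBSi was droughted and received both the bacterium Bacillus pumilus G5 and silicon, its moisture and silicon dose being absent from the labels. DSi was droughted with silicon at 2 mM, and DB was droughted with the bacterium. D was droughted at 35 to 45% of saturated moisture, without either agent. CK, the watered control, was kept at 65 to 75%. Each group had 3 libraries, named by group and replicate (D-1 is replicate 1 of D). Whether the 3 were grown in separate pots is not in the labels. The p-values therefore measure only the spread between these samples, and part of it may be technical. In whole seedlings, fewer cells of a type and less RNA per cell cannot be told apart.

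A gene can give several mature transcripts, or isoforms, that differ in the exons joined, the introns kept or the ends of the RNA. They may encode different proteins, or none, and in Arabidopsis many genes are known to be spliced differently under water deficit. In the strict sense, an isoform switch is a change in which of these transcripts makes up most of a gene's RNA. Here the word covers any difference in share that met the rule, whether or not the most used isoform differed. Either can come with a change in the total or without one. The files give isoforms by number only, with no exon structure, sequence or gene name, so the difference in RNA between 2 isoforms of a locus is not described here.

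The libraries held 3039422 to 4043823 reads. By Spearman correlation across 22654 genes, each library averaged 0.916 to 0.945 with its own group and 0.903 to 0.935 with the other groups. CK-3, D-2 and DB-2 were, by a small margin, closer to the other groups than to their own. Without CK-3, D-2 or DB-2, 39, 38 and 39 of the 40 loci still met the rule. Leaving out a library cannot undo a separation already seen with every library included. A locus is then lost only when its mean difference falls under 20 points. Most loci were therefore bound to remain, and nothing is read from these counts about CK-3, D-2 or DB-2. The 40 loci had 36 to 3144 reads per library, and at the low end of that range 1 read moves a share by more than 2 points. The reads come from PCR without molecular identifiers and can be copies of one molecule, so limits from read numbers cover counting error only.

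The 40 loci were spread unevenly over the groups. DBSi held 26 of them, which is 0.665% of the 3910 loci. DSi held 1 (0.0256%), DB 2 (0.0512%), D 8 (0.205%) and CK 3 (0.0767%), so that 1.02% of the loci met the rule in some group. With the minimum difference of 20 points left out, the share of some isoform did not overlap the other 12 libraries at 173 loci for DBSi (4.42%), 23 for DSi (0.588%), 33 for DB (0.844%), 45 for D (1.15%) and 38 for CK (0.972%), in all at 294 loci (7.52%). The 40 loci held 56 isoforms that met the rule, 26 with a higher share in the switching group and 30 with a lower one. At 16 loci both occurred, at 10 only a higher share and at 14 only a lower one. By mean share, the most used isoform differed between the switching group and the other 12 libraries at 17 of the 40 loci. These were 8 of 26 in DBSi, 0 of 1 in DSi, 2 of 2 in DB, 4 of 8 in D and 3 of 3 in CK.

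**Figure D1:**
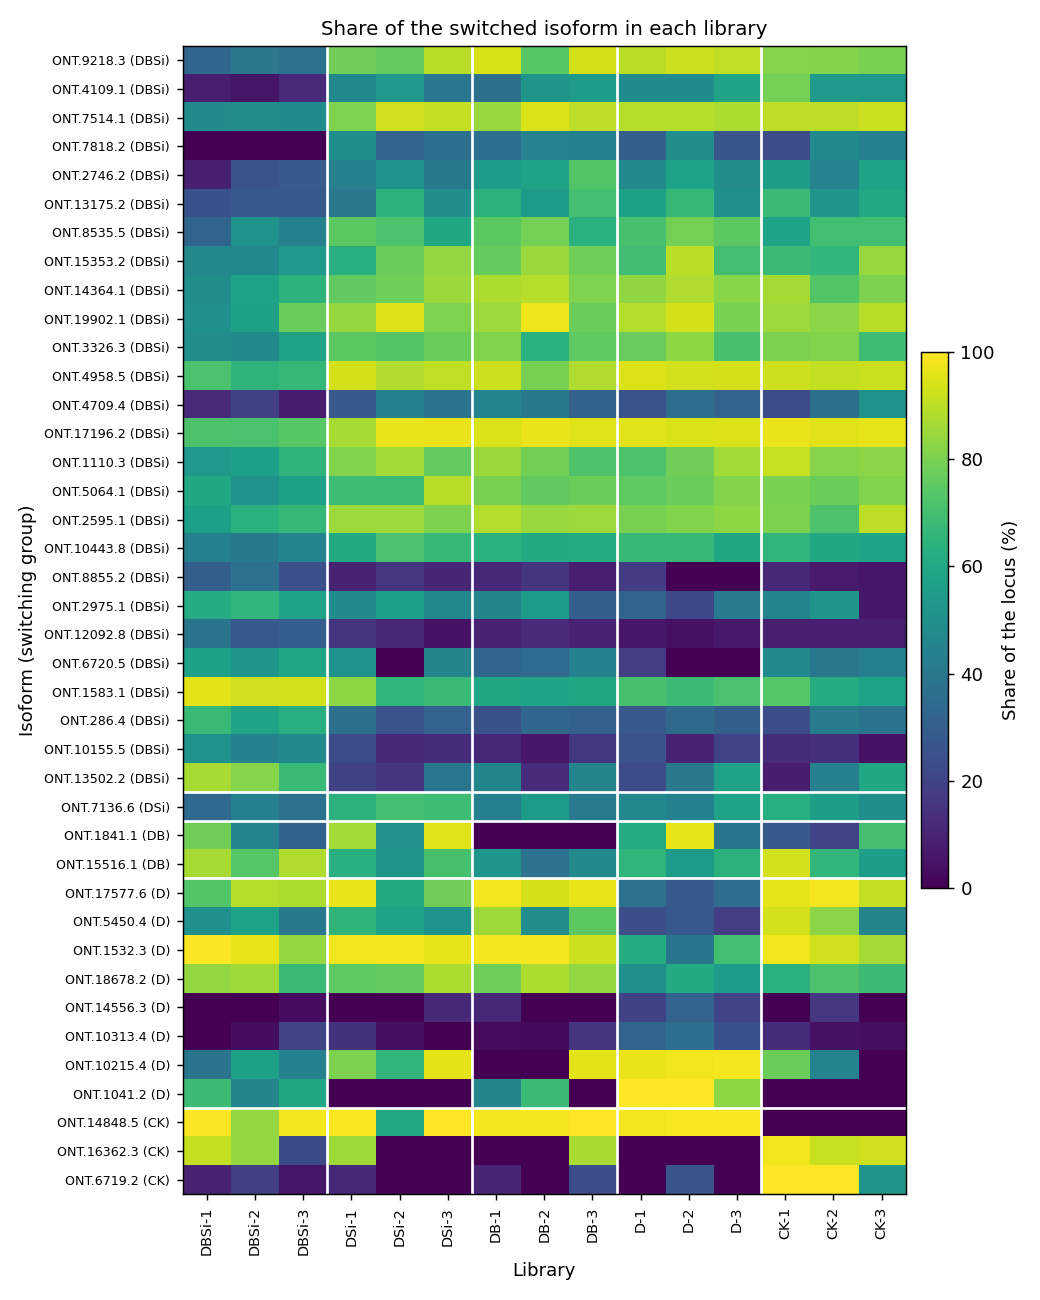
Share of the locus (colour, in percent) of the isoform with the largest difference at each of the 40 loci (rows, switching group in parentheses) in the 15 libraries (columns, white lines between groups). The 26 loci of DBSi form the upper block and differ from the other 12 libraries by 20.5 to 48.5 points, and several loci of D and CK at the bottom lie near 0% or 100% in single libraries.

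The size of the difference ran from 20.1 to 94.5 points, with a median of 27.1. The gap between the switching group's nearest library and the nearest of the other 12 had a median of 9.14 points. It was under 1 point at 5 loci and 10 points or more at 18, so that the nearest libraries nearly touched at the first 5. Just inside the minimum difference lay ONT.7136.6 in DSi, with 67.8 ± 3.0% in DSi (SD, n = 3) and 47.7 ± 8.8% in the other libraries (SD, n = 12), a difference of 20.1 points. Just outside it lay ONT.3990.1, with 53.7 ± 3.3% in DBSi (SD, n = 3) and 73.6 ± 7.3% in the other libraries (SD, n = 12), a difference of -19.9 points.

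All 40 loci carried ONT IDs, as did 98.0% of the 3910 loci. In the deposited gene table, reads of reference-numbered and ONT isoforms are summed under one gene. Comparing read numbers in all 15 libraries placed 31 of the 40 loci in 1 reference gene each and 2 in a reference gene that also holds a second ONT locus. A further 3 were ONT genes of their own, 3 were divided between gene rows and 1, ONT.7818, could not be placed. As a share of the whole gene, 35 of the 39 placed loci still met the rule. The exceptions were ONT.10155 and ONT.15353 in DBSi, ONT.18678 in D and ONT.7136 in DSi. ONT.18678.2 differed by -17.9 points and ONT.7136.6 by 19.4 points as shares of the gene. At ONT.15353 the reference isoform averaged 87.8% of the gene's reads, so its switch concerns a small part of that gene.

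The DBSi loci were mostly graded shifts, in which a dominant isoform held a smaller share and others a larger one. The isoform most used in the other 12 libraries had a lower mean share in DBSi at 23 of the 26 loci, and at 19 of these it met the rule. The effective number of isoforms, which is 1 when a single isoform makes up the locus and grows as reads spread evenly, had a median of 2.14 in DBSi and 1.83 in the other libraries. It was higher in DBSi at 18 of the 26 loci. These values describe shares that the rule itself used, and the loss was not particular to DBSi. The most used isoform likewise had a lower mean share at 7 of 8 loci in D, 2 of 2 in DB, 3 of 3 in CK and 0 of 1 in DSi. In the same order, the effective number was higher in the switching group at 5 of 8, 1 of 2, 1 of 3 and 0 of 1.

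ONT.9218 had the largest loss of share. ONT.9218.3 made up 32.9, 39.7 and 37.2% of the locus in DBSi, against a lowest value of 73.9%, a median of 85.7% and a highest value of 94.1% in the other 12 libraries. The gap of 34.2 points was wider than the whole spread of either set. The mean CPM of ONT.9218.3 itself, given below, differed little between DBSi and the others, but it rests largely on DBSi-1. ONT.9218.3 had 167, 50 and 61 reads in DBSi-1, DBSi-2 and DBSi-3, against 59 to 194 in the other 12 libraries. Larger shares in DBSi belonged mainly to 4 isoforms: ONT.9218.4 had 24.0 ± 6.0% in DBSi (SD, n = 3) against 5.1 ± 5.2% (SD, n = 12), ONT.9218.6 17.6 ± 3.6% against 1.3 ± 1.8%, ONT.9218.2 10.7 ± 1.4% against 4.2 ± 3.0%, and ONT.9218.7 8.8 ± 1.1% against 2.1 ± 2.6%. The locus matched the gene Glyur000274s00012540.

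ONT.4109, in the gene Glyur000078s00005402, showed a change of the most used isoform by mean share. ONT.4109.1 had 8.46, 5.53 and 11.8% in DBSi, and from 36.9% to 79.0% with a median of 53.4% in the other libraries. ONT.4109.2 was the most used in DBSi, with 48.9 ± 4.4% in DBSi (SD, n = 3) and 33.8 ± 11.99% in the others (SD, n = 12). It also exceeded ONT.4109.1 in DB-1 (77 and 66 reads) and DSi-3 (93 and 81 reads), and had 0 reads in CK-1. ONT.4109.5 had 20.1 ± 3.9% against 4.7 ± 4.0%. The DBSi libraries were the 3 lowest for ONT.4109.1 by 25.1 points.

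The largest gains in DBSi were at ONT.13502 and ONT.7818. ONT.13502.2 had 86.8, 81.7 and 67.2% in DBSi, against 8.06 to 59.8% with a median of 39.6% in the other libraries. Those 12 libraries were widely scattered, yet all lay below DBSi, by at least 7.39 points. At ONT.7818 one isoform was missing: ONT.7818.2 had 0 of 597 reads in DBSi, which allows a share of up to 0.503%, against 23.3 to 49.8% with a median of 40.03% in the others. ONT.7818.1 accordingly made up 100, 98.1 and 100% of the locus in DBSi.

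Several other DBSi loci, chosen after their values were seen, show the same graded form. ONT.7514.1 had 48.2, 49.3 and 48.6% in DBSi, against 80.5 to 94.5% with a median of 89.9% in the others, and 3 minor isoforms, ONT.7514.5, ONT.7514.2 and ONT.7514.4, made up 20.8, 12.7 and 9.8% of the DBSi mix. ONT.17196.2 had 71.9, 71.2 and 73.9% in DBSi, against 87.0 to 97.2% with a median of 95.2%. ONT.4958.5 had 71.5, 65.2 and 66.6% in DBSi, against 79.4 to 94.8% with a median of 92.1%. At each of these loci the isoform that lost share still held the largest part.

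At 8 of the 26 DBSi loci, isoforms met the rule in both directions, one with a higher share and another with a lower one. At ONT.13175, which has only 2 isoforms, ONT.13175.3 had 74.7, 72.1 and 72.5% in DBSi, against 30 to 60.4% with a median of 41.4%. ONT.286.4 had 67.5, 58.6 and 63.1% in DBSi, against 23.6 to 42.4% with a median of 31.1%, while ONT.286.1 had a lower share. ONT.1583 went the other way in its mix: its already dominant isoform ONT.1583.1 had 96.1, 92.6 and 93.2% in DBSi, against 58.0 to 82.8% with a median of 67.0%, and ONT.1583.4 lay below every other library at 5.9 ± 1.8% (SD, n = 3) against 33.0 ± 7.4% (SD, n = 12). ONT.10155.5 had 51.2, 43.6 and 47.7% of its locus in DBSi, against 4.8 to 25.5%. Of the whole gene Glyur000340s00024363 it was 16.0 ± 0.5% in DBSi (SD, n = 3) against 2.65 ± 1.4% (SD, n = 12), while the reference isoform was 66.3 ± 1.9% against 81.4 ± 2.9%.

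**Figure D2:**
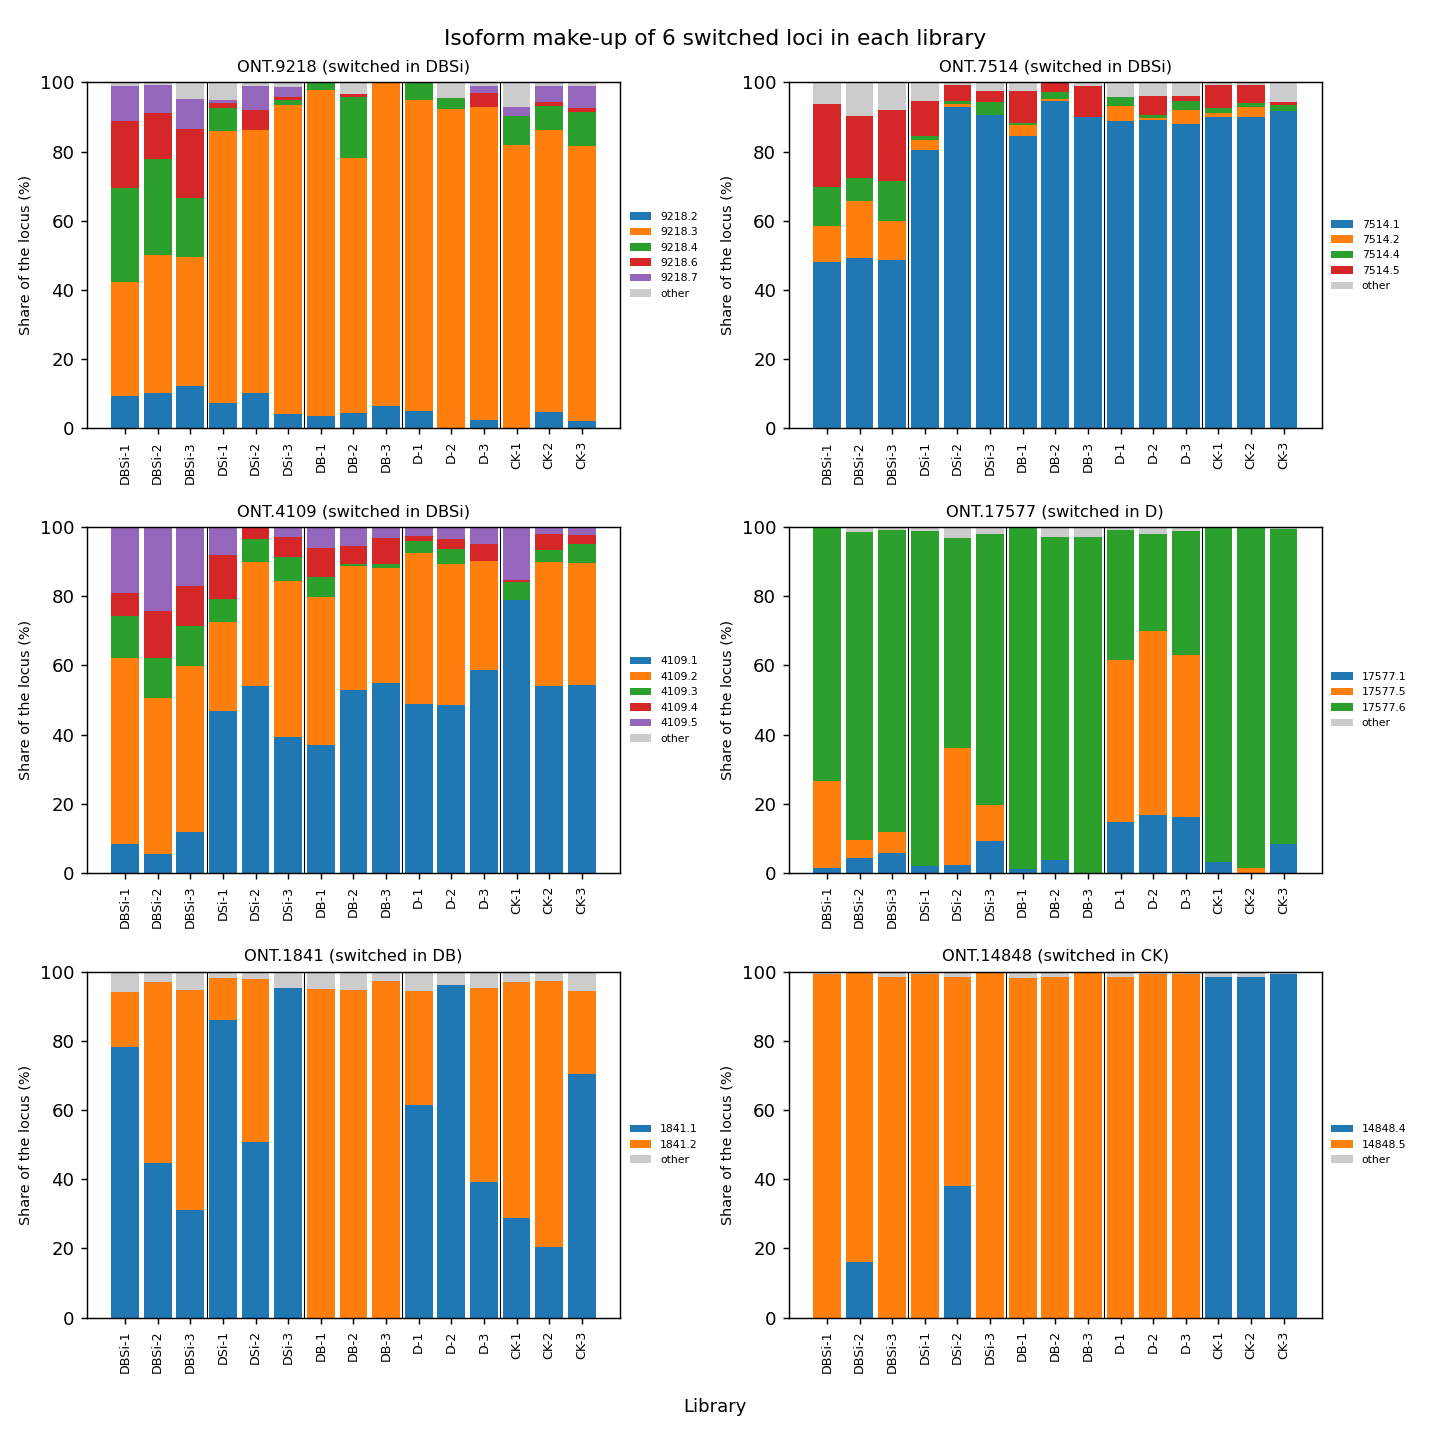
Share of the locus (y axis, percent) of each isoform that reached 8% in some library (colours, the rest in grey) at 6 loci in the 15 libraries (x axis, lines between groups). In all 3 DBSi libraries the dominant isoform of ONT.9218, ONT.7514 and ONT.4109 has a smaller share and several others a larger one. At ONT.1841 and ONT.14848 one isoform is absent from all 3 libraries of DB and of CK.

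The CPM behind the shares was also compared, as a description, since the rule used the same values. For the 21 isoforms with a lower share, the isoform's own mean CPM was higher in DBSi at 11 and lower at 10, with a median ratio of 1.05 over the other libraries. The mean CPM of the rest of the locus was higher in DBSi at all 21, with a median ratio of 4.51, and choosing isoforms by a lower share favours that direction. At ONT.9218, ONT.9218.3 had a mean of 27.8 ± 19.5 CPM in DBSi (SD, n = 3) and 26.5 ± 10.3 CPM in the others (SD, n = 12), while the other isoforms together had 52.0 ± 44.0 CPM and 4.62 ± 2.4 CPM. DBSi-1 held the highest DBSi value of both. ONT.7514.1 had 54.8 ± 3.9 CPM in DBSi and 42.4 ± 9.4 CPM in the others, while the rest of its locus had 57.7 ± 4.2 CPM and 5.26 ± 2.4 CPM. Among the 13 isoforms with a higher share, the isoform's own mean CPM was higher in DBSi at all 13, a direction that the choice by a higher share likewise favours.

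**Figure D3:**
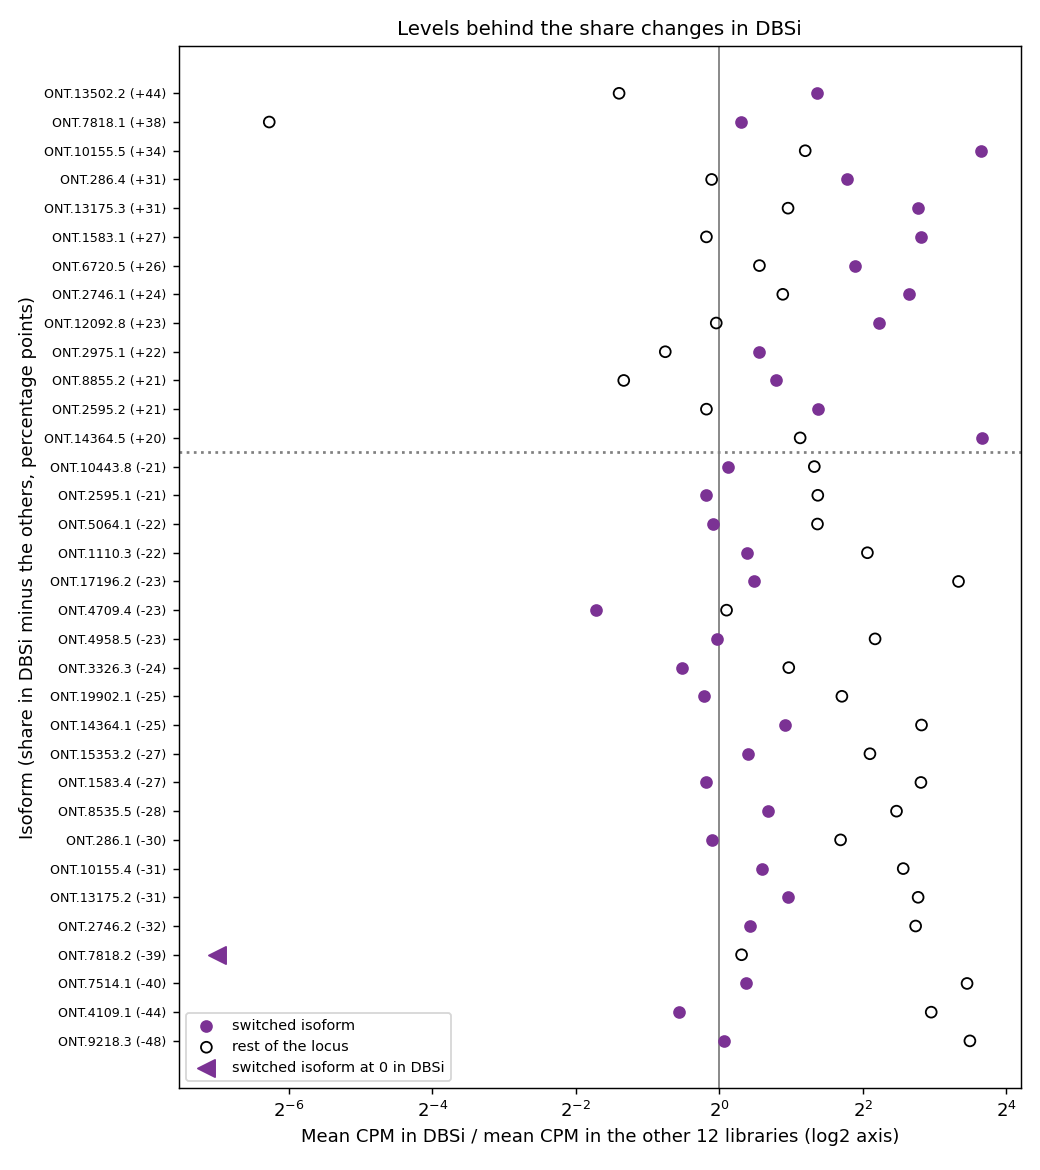
Ratio of the mean CPM in DBSi to the mean CPM in the other 12 libraries (x axis, log2 scale) for the 34 isoforms that met the rule in DBSi (filled) and for the rest of their locus (open), ordered by the difference in share (points, in parentheses). Below the dotted line, where the share was lower in DBSi, the open circles all lie above 1 and the filled ones scatter around 1, with ONT.7818.2 at 0 drawn at the left edge.

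The level of the whole locus was compared by limma on log2(CPM + 1) of all 26780 loci with 1 CPM or more in 3 libraries, the switching group against the mean of the other 4 groups. The rule compared the same groups in isoform share, computed from the same CPM values, so the counts are given beside the share of all loci called and nothing is read from them. The 26780 also include loci under the rule's minimum of 10 CPM in every library, so they are unlike the 40 in level. Of the 26 DBSi loci, 13 were called higher and 1 lower (adjusted p under the threshold of 0.05), where 3.93% of all loci were called higher and 1.58% lower, 5.51% together. Of the 8 D loci 0 were called higher and 1 lower, where 0.138% of all loci were called higher and 0.583% lower, 0.721% together. None of the 3 CK, 2 DB and 1 DSi loci was called by limma, with 1, 0 and 0 at an unadjusted p under 0.05, against 0.288% of all loci for CK (0.19% higher and 0.0971% lower), 0.00373% for DB and 0.0% for DSi. Over the 40 loci limma called 15, edgeR 15 and DESeq2 18. Among the 26780 loci edgeR called 1561 for DBSi, 0 for DSi, 5 for DB, 97 for D and 128 for CK. DESeq2 called 1930, 17, 135, 559 and 466 in the same order. The median log2 difference of the 26 DBSi loci was 0.83, beside -0.07 over all loci.

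ONT.1583 was the locus with the largest difference in level, at 453, 332 and 324 CPM in DBSi, against 45.6 to 132 CPM in the other libraries. Its log2 difference was 2.35 (SE 0.20, limma adjusted p = 2.01e-05, higher in 3 of 3 libraries). ONT.4109 had 209, 191 and 205 CPM in DBSi, against 24.9 to 79.3 CPM, a log2 difference of 2.05 (SE 0.15, limma adjusted p = 6.77e-06). Neither locus overlapped between DBSi and the other libraries. ONT.8855 was lower, with 31.8, 25.7 and 21.7 CPM in DBSi, against 25.5 to 73.0 CPM, a log2 difference of -0.88 (SE 0.24, limma adjusted p = 0.0477). Its groups overlapped at DB-3, and its adjusted p ran from 0.0136 to 0.269 over the alternatives, at 0.269 without DBSi-3 and 0.164 without DBSi-2. The call was also lost without DBSi-1, DSi-2, DSi-3, DB-1, DB-2, D-1, D-2, CK-1 or CK-3. It was lost with a replicate block (limma adjusted p = 0.0688), without the intensity trend (limma adjusted p = 0.0736) and in edgeR's quasi-likelihood test (adjusted p = 0.0609).

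The D locus called lower was ONT.1041, with 19.8, 33.9 and 21.6 CPM in D, against 27.5 to 128 CPM in the other libraries. Its log2 difference was -1.27 (SE 0.26, limma adjusted p = 0.0386, and 0.000404 to 0.272 over the alternatives). D-2 overlapped the other libraries, and the call was lost without D-1 (limma adjusted p = 0.272), D-2, D-3, DBSi-1, DBSi-2, DBSi-3, DSi-2, DB-1, DB-2 or CK-3. It was also lost with a replicate block (limma adjusted p = 0.0522), without the trend (limma adjusted p = 0.0718) and in edgeR's quasi-likelihood test (adjusted p = 0.0599). Among the DBSi loci, ONT.10443 was no longer called without DBSi-1 (limma adjusted p = 0.0583) or DBSi-2 (limma adjusted p = 0.0528).

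**Figure D4:**
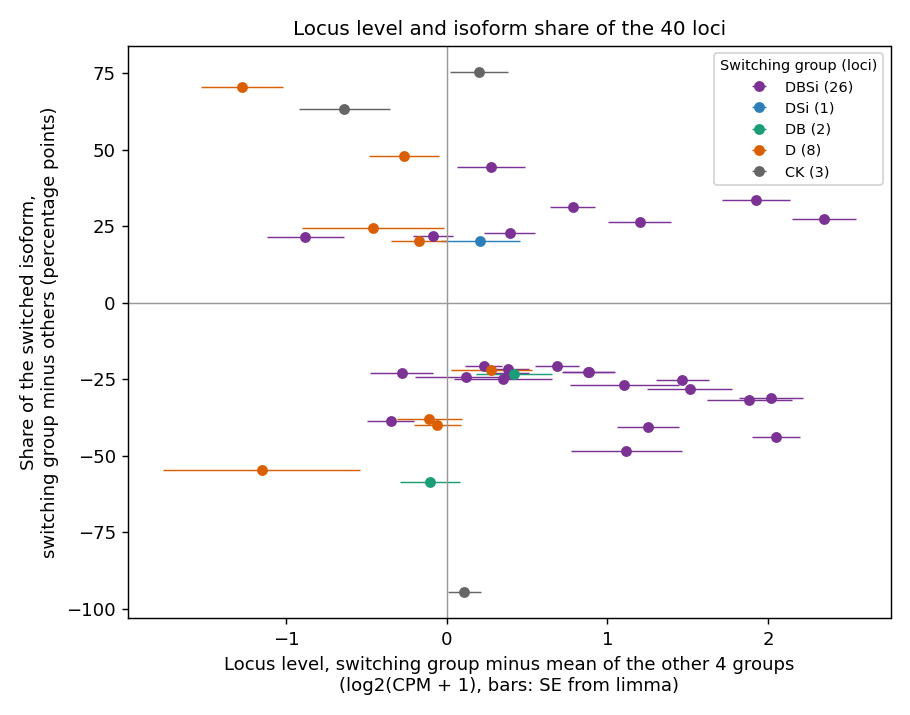
Difference in locus level (x axis, log2(CPM + 1), bars show the limma SE) and difference in the share of the isoform with the largest difference (y axis, percentage points), both switching group minus the others, for the 40 loci. Of the 26 DBSi loci, 22 lie to the right of 0, while 7 of the 8 D loci lie to the left.

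Across the other groups, the DBSi mix had no single nearest group. By mean share of the leading isoform, DBSi lay closest to DSi at 10 loci, to CK at 8, to D at 4 and to DB at 4. It lay farthest from D at 9, from DB at 9, from CK at 6 and from DSi at 2. These orders come from group means of 3 libraries and were not tested.

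The 8 loci of D, drought without either agent, differed from the other libraries by 20.3 to 70.4 points. ONT.1041, which has 2 isoforms and matched Glyur000014s00002534, had the largest. ONT.1041.2 made up 100, 100 and 83.1% in D. It was at 0% in all 3 DSi libraries, all 3 CK libraries and DB-3, at 45.4 and 68.1% in DB-1 and DB-2, and at 68.5, 45.5 and 59.6% in DBSi. The other isoform, ONT.1041.1, had 12 of 243 reads in D and 1754 of 2743 in the others. ONT.10215.4 had 96.9, 97.9 and 98.6% in D, and anything from 0% to 96.0% elsewhere with a median of 50.7%, so that the gap was 0.979 points. At both loci single libraries of the same group lay far apart.

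Next to the loss of ONT.1041.1, the largest losses in D were at ONT.17577 and ONT.5450. ONT.17577.6 had 37.7, 28.0 and 35.8% in D, against 60.8 to 98.7% with a median of 92.2% in the others. ONT.17577.5 took most of its place, with 48.9 ± 3.6% in D (SD, n = 3) against 6.8 ± 11.2% (SD, n = 12), and DSi-2 came nearest to D in both. The level of this locus ranged widely, from 43.8 to 976 CPM, with DB-3 at the top. ONT.5450.4 had 23.5, 27.4 and 18% in D, against 40.5 to 93.3% with a median of 57.8%, and ONT.5450.1 had 74.7 ± 8.3% (SD, n = 3) against 37.1 ± 17.3% (SD, n = 12).

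ONT.1532, chosen after its values were seen, had a higher share of one minor isoform in D. ONT.1532.1 had 36.3, 59.5 and 29.0% in D, against 0 to 14.8% with a median of 0.9%, and its mean CPM was 122 ± 103 in D (SD, n = 3) and 8.35 ± 12.2 in the others (SD, n = 12). D-2 carried the highest share of it. The 5 isoforms with a lower share in D all had a lower mean CPM in D as well. The choice by a lower share favours that direction, and 7 of the 8 D loci had a lower mean level in D. ONT.18678.2 differed little, with 13.5 ± 5.2 CPM in D (SD, n = 3) and 14.9 ± 3.1 CPM in the others (SD, n = 12).

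**Figure D5:**
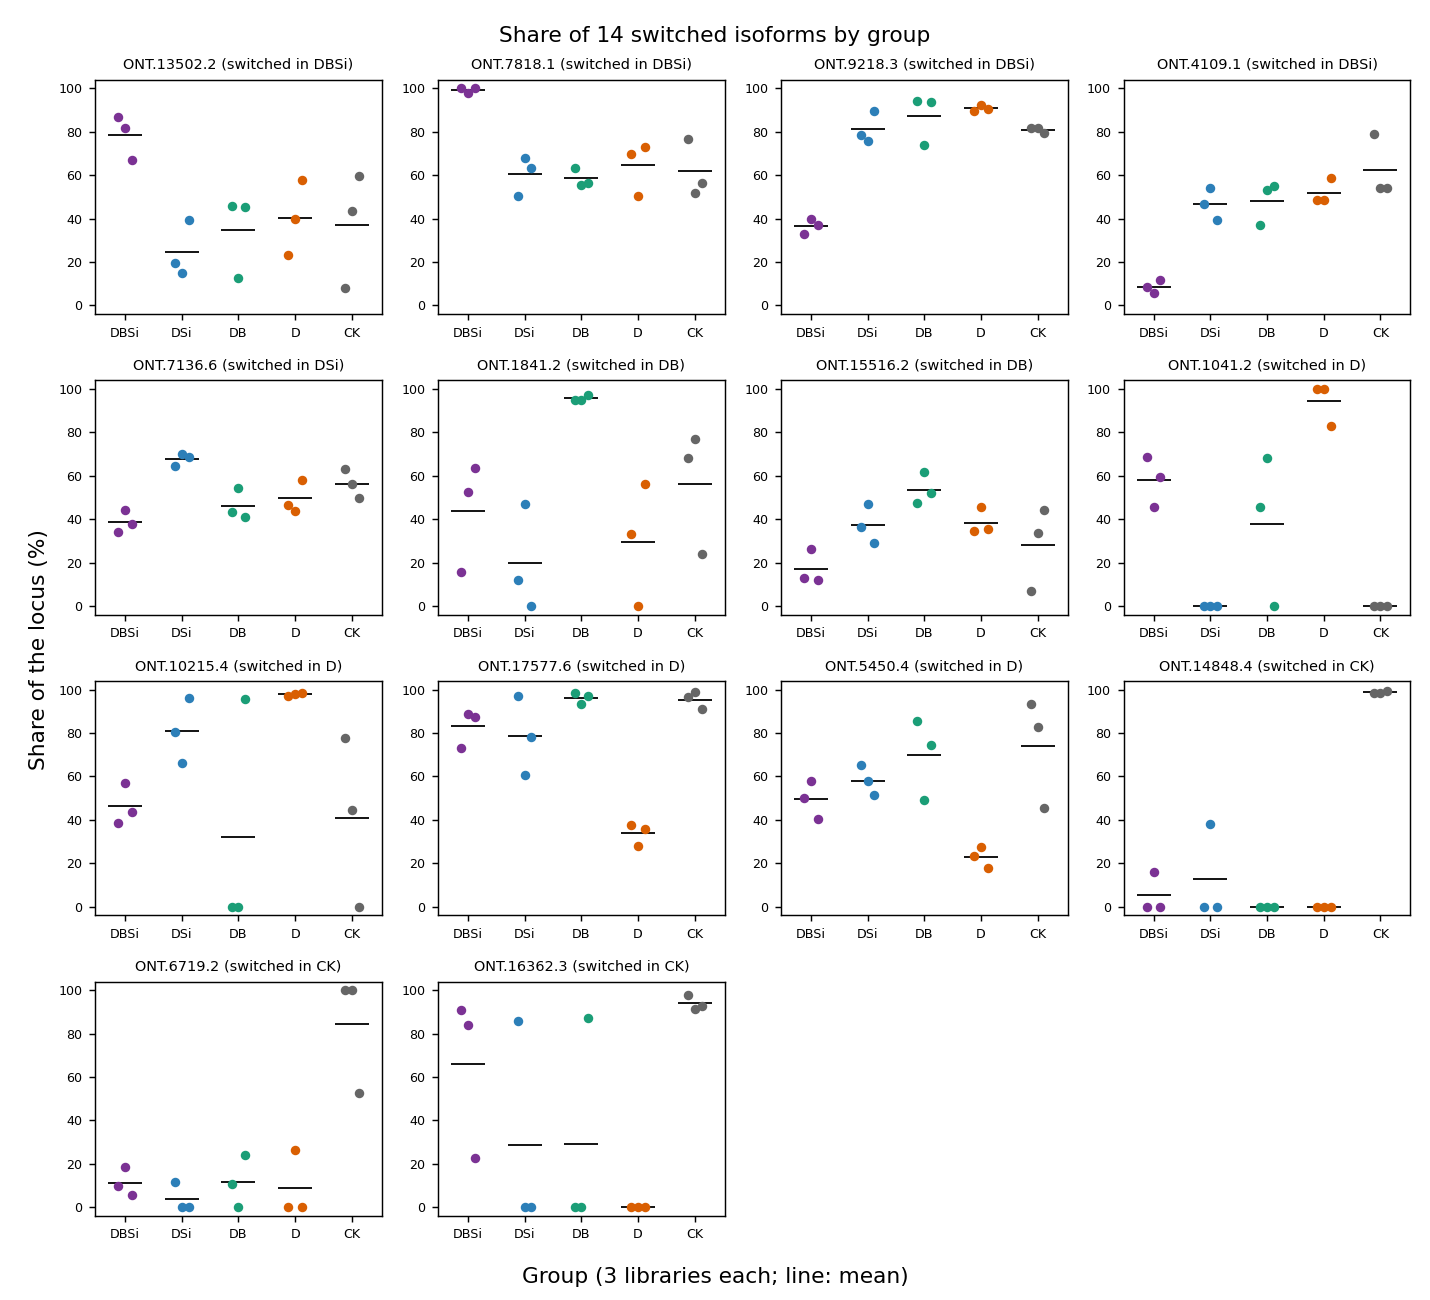
Share of the locus (y axis, percent) of 14 isoforms in DBSi, DSi, DB, D and CK (x axis; points are libraries, lines are means of 3). The switching group lies apart in every panel because the rule chose such isoforms, at ONT.15516.2 by only 0.113 points. At ONT.10215.4 and ONT.1041.2 the DB libraries run from 0% to 95.7% and 68.1%. At ONT.16362.3 the DSi libraries run from 0% to 85.7%, and those of DB slightly wider.

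By mean share, the 2 loci of DB, drought with the bacterium, both had another most used isoform than the other 12 libraries. Single libraries departed from this. DB-1 had 86 reads of ONT.15516.1 and 77 of ONT.15516.2, and ONT.1841.2 also led ONT.1841.1 in CK-1, CK-2, D-3, DBSi-2 and DBSi-3. At ONT.1841, in the gene Glyur000028s00003476, ONT.1841.1 had 0 of 524 reads in DB, which allows a share of up to 0.573%, and 20.3 to 96.2% with a median of 56.0% in the other libraries. ONT.1841.2 had 95, 94.8 and 97.4% in DB, against 0 to 76.9% elsewhere. The total level of the locus differed little, at 53.3 ± 5.6 CPM in DB (SD, n = 3) and 58.2 ± 10.9 CPM in the others (SD, n = 12). ONT.15516.2 had 47.2, 61.8 and 52.0% in DB, against 6.67 to 47.1% with a median of 34.0%, and its gap was 0.113 points. ONT.7136.6, the single isoform of DSi, had 64.4, 70.1 and 68.9% there, against 34.0 to 63.1%, and CK-1 came within 1.24 points.

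The 3 loci of CK, the watered control, differed from the droughted libraries by 63.1 to 94.5 points. At ONT.14848, in the gene Glyur000834s00025315, ONT.14848.5 had 0 of 390 reads in CK, which allows a share of up to 0.769%, and ONT.14848.4 made up 98.3, 98.5 and 99.3%. In the droughted libraries ONT.14848.5 made up 60.3 to 100% with a median of 98.7%. ONT.14848.4 appeared there in DBSi-2 (16.0%) and DSi-2 (38.0%), and was at 0 in the other droughted libraries. The locus level was nearly the same, 38.8 ± 1.0 CPM in CK (SD, n = 3) and 36.0 ± 2.4 CPM in the droughted libraries (SD, n = 12).

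ONT.6719.2 had 100, 100 and 52.8% in CK, against 0 to 26.2% with a median of 7.6%. CK-3 therefore lay about midway between the other CK libraries and the rest. ONT.16362.3 had 97.7, 91.5 and 92.9% in CK, and was at 0% in D-1, D-2, D-3, DB-1, DB-2, DSi-2 and DSi-3. It was at 91.1, 84.0 and 22.5% in DBSi, 85.7% in DSi-1 and 87.3% in DB-3, so that the gap to DBSi-1 was only 0.418 points.

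An isoform share that runs from near 0% to near 100% between libraries was more frequent among the 40 loci than in the 3910, as the rule favours wide differences. Some isoform spanned 90 points or more at 7 of the 40 loci (17.5%), and at 222 of the 3910 (5.68%). The 7 were ONT.10215, ONT.1041, ONT.13502, ONT.14848, ONT.16362, ONT.1841 and ONT.6719. Of these, ONT.13502 alone belonged to DBSi, and none of the DBSi isoforms that met the rule spanned 90 points.

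The level of the locus among the 4 groups outside the switching group was not used by the rule, apart from the minimum of 10 CPM in every library, and was tested. There limma's moderated F-test called 3 of the 40 loci, 1 of 3 in CK, 1 of 8 in D, 1 of 2 in DB and 0 of 1 and 0 of 26 in DSi and DBSi. The share of all loci called was 3.5% for the groups other than CK, 3.22% other than D, 4.34% other than DB, 4.9% other than DSi and 0.232% other than DBSi. At an unadjusted p under 0.05, limma listed 11 of the 40. The share of all loci at that level was not counted, so nothing is read from the 11. After adjustment edgeR called 3 of the 40 and DESeq2 4. Among all 26780 loci, which include those under 10 CPM, edgeR called 966 for the groups other than CK and 899 other than D. It called 1176 other than DB, 1319 other than DSi and 56 other than DBSi. DESeq2 called 1897, 1710, 2204, 2412 and 542 in the same order.

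ONT.16362 differed most clearly in level among the 4 droughted groups. It had 220, 90.7 and 131 CPM in DBSi, 109, 60.9 and 53.9 CPM in DSi, 26.3, 39.6 and 17.1 CPM in DB, and 16.3, 21.1 and 28.0 CPM in D (limma F-test, adjusted p = 0.00182, and 6.83e-13 to 0.0104 over the alternatives). DBSi and DSi libraries all lay above those of DB and D. ONT.1041, the D locus, had 105, 105 and 128 CPM in DBSi, 72.2, 40.8 and 28.7 CPM in DSi, 84.9, 93.3 and 50.9 CPM in DB, and 27.5, 47.0 and 36.6 CPM in CK (limma F-test, adjusted p = 0.0329, and 2.41e-05 to 0.127 over the alternatives). ONT.15516, the DB locus, had 41.5, 53.9 and 58.0 CPM in DBSi, 26.4, 26.1 and 17.1 CPM in DSi, 19.2, 21.7 and 17.9 CPM in D, and 14.6, 33.0 and 15.1 CPM in CK (limma F-test, adjusted p = 0.0364, and 0.00026 to 0.184 over the alternatives). At all 3 loci DBSi had the highest mean of the 4 groups. The call at ONT.1041 was lost without CK-1, CK-3, DB-1, DSi-2, DBSi-1, DBSi-2 or DBSi-3, and without the intensity trend (limma adjusted p = 0.0604). That at ONT.15516 was lost without CK-1, CK-3, D-1, D-2, D-3, DSi-2, DBSi-1, DBSi-2 or DBSi-3, with a replicate block (limma adjusted p = 0.0542) and without the trend (limma adjusted p = 0.0612).

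Use of the isoform among the other 4 groups was fitted as log2 of the isoform over the rest of its locus. The rule limits how far those 12 libraries can spread in share, so the count is given beside the share of all isoforms called and nothing is read from it. The limma F-test called 0 of the 40 loci, with 3 at an unadjusted p under 0.05. Among all 13482 isoforms tested it called 0.46% for the groups other than CK, 0.46% other than D, 0.504% other than DB, 0.586% other than DSi and 0.0223% other than DBSi. No count tool was run on isoform use. The lowest adjusted p was 0.143, at ONT.1041.2 in D, where DBSi, DB, DSi and CK averaged 57.9, 37.8, 0 and 0%. A p above the threshold does not show that the 4 groups used these isoforms alike.

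Outside the 40 loci, use of the main isoform was also compared, an analysis added after the values were seen. Over the other 3870 loci, the isoform with the highest mean share made up on average 82.7 ± 0.15% in DBSi libraries (SD, n = 3) and 82.4 ± 0.45% in the others (SD, n = 12), by a two-sided exact permutation test p = 0.316, adjusted over 5 groups 0.445. The lowest p of the 5 groups was 0.237, in CK, with 82.2 ± 0.60% in CK (SD, n = 3) and 82.5 ± 0.37% in the other libraries (SD, n = 12) by the same exact test. These loci as a whole showed no detectable difference in how far the main isoform dominated.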

How the data were processed

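The authors deposited CPM values per gene (30197) and per isoform (53338), per the file headers with 1 column for each of the 15 libraries. The aligner was minimap2, per the submitters' processing notes. Not given in the sources used here are its version, the genome build, the isoform caller and the filters. Of the values in each table, 100% were whole multiples of 1 read within 0.01, which gave 50341895 reads in all. Groups came from the sample titles.

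Loci, shares and the rule were computed in Python 3.11.15 (pandas 2.3.3, numpy 2.4.6, scipy 1.17.1). The members and lists were chosen with earlier results of these data known. Locus sums of the isoform table stood in for genes in the test of level. limma 3.58.1 (R 4.3.3) with an intensity trend was fitted to all 15 libraries on log2(CPM + 1) after a filter of 1 CPM in 3 libraries, two-sided, with Benjamini-Hochberg adjustment and a threshold of 0.05; a log2 difference on this scale understates the change of low loci. CPM are not counts, so limma was the main test, and edgeR 4.0.16 and DESeq2 1.42.0 on the recovered reads were alternatives. The tests and the rule were tested on simulated data.

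A locus was matched to a gene row where its recovered reads equalled the row's reads less those of its reference isoforms, in all 15 libraries. Where that gave no single match, some of its isoforms, or the locus with a second ONT locus, were tried, with a minimum of 20 reads. Loci were named by a rule: for each switching group the 2 largest gains and 2 largest losses of share, the 2 largest called differences in each direction, up to 4 by the F-tests, and 1 on each side of the minimum difference. Lists of splicing genes and organ markers were not run, since the files pair no ID with a name, so the tissue was not checked against markers. A limit for 0 reads is 3 reads over the group's locus reads. Alternatives were other minimum differences, locus minima, isoform limits, pseudocounts, filters, scaling, a replicate block, and each library left out.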

Additional observations from a re-analysis of the deposited data

How the results depend on the processing

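The count of 40 loci was 70 with a minimum difference of 15 points, 18 with 30 points, 65 with a locus minimum of 5 CPM and 26 with 20 CPM. By group, DBSi gave 49 and 9 loci at 15 and 30 points, DSi 3 and 0, DB 1 at 30 points, and D 5 at 30 points. With a locus minimum of 5 and 20 CPM, DB gave 6 and 1, D 14 and 4, and CK 5 and 1. As a share of the gene row, a choice made after seeing the data, DSi gave 0. Leaving out each library in turn gave 53 to 70 loci in all, 25 to 52 in DBSi, 0 to 12 in DSi, 2 to 22 in DB, 8 to 31 in D and 3 to 26 in CK. The count in all moved by over 1.5 times without DBSi-1 (66), DB-2 (62), D-1 (63), D-3 (62) or CK-1 (70). A group left with 2 libraries separates from the others more easily by construction, and without DBSi-2 35 of the 40 loci remained. DBSi gave 52 without DBSi-1 and 42 without DBSi-3. DSi gave 9, 11 and 12 without DSi-1, DSi-2 and DSi-3, and 0 without D-1, DB-1, DB-3 or DBSi-1. It gave 2 without CK-3, D-3 or DBSi-2. DB gave 13 without DB-1, 22 without DB-2, 16 without DB-3, and 4 without CK-2 or DBSi-2. D gave 31 without D-1 and 24 without either D-2 or D-3. CK gave 26, 14 and 18 without CK-1, CK-2 and CK-3, 5 without D-1 and 6 without DB-3.

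Calls on the level of the locus in the switching group ran from 12 to 16 with single libraries left out. Calls among the other 4 groups ran from 1 to 3, at 1 without CK-1, CK-3, DSi-2, DBSi-1, DBSi-2 or DBSi-3, and were 1 without the intensity trend. Calls on isoform use ran from 0 to 1, at 1 without D-1 or DB-3. The causes were not tested.

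On average, libraries of the same replicate number showed almost no shared deviation. Deviations from the group means correlated by 0.0054 on average over 30 same-number pairs (-0.177 to 0.279, 8 pairs over 0.1). Over 60 other pairs the average was -0.0028 (-0.344 to 0.24). These averages cannot show whether samples of some groups were paired. With the replicate block, 13 loci were called in the switching group, 2 among the other 4 groups and 0 for isoform use.

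Loci near 10 CPM rest on as few as 36 reads in a library, which limits how small a difference in share can be seen.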
